A study of Homo sapiens with 12 samples.

Results

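The 10 genes described here belong to the circadian clock circuit: BHLHE40, BHLHE41, PER1, PER2, PER3, CRY1, CRY2, NR1D1, DBP and ARNTL. They were measured in hTERT-RPE1, a human cell line from retinal pigment epithelium that telomerase has made immortal. The members were taken by gene symbol from a table of 53361 rows, each symbol had 1 row, and all 10 members passed the filter on low values. The set was selected on BHLHE40, chosen by its higher level after all 3 treatments, so its differences from control are given as a description with no test. The other 9 members were named by symbol, and their tests come from a fit over all genes.

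The 12 libraries fell into 4 groups of 3, all from the same unmodified line. In the first group, cells were given 0.5 µM reversine for 24 h, after which the drug was washed out and the cells were harvested 48 h later. Reversine inhibits the mitotic kinase Mps1, so that chromosomes are missegregated. Another group received 0.1 µM bafilomycin A1 (BafA1), an inhibitor of the lysosomal proton pump, for 6 h. The last treated group received 1 µM MG132, a proteasome inhibitor, for 24 h, and the control group was untreated. The study concerns stress in cells with missegregated chromosomes and its bearing on autophagy. Neither a vehicle nor a time of day is named, and each group had 1 harvest, so no rhythm was measured and an effect of solvent or time in culture cannot be told apart from the drug. Nor do they state whether a group's 3 libraries are separate cultures. The p-values therefore measure the spread between libraries, which may be technical. In bulk RNA, fewer cells expressing a gene and less RNA per cell cannot be told apart.

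In the mammalian clock, the ARNTL protein (BMAL1) pairs with CLOCK or NPAS2 and activates genes through E-boxes. PER and CRY proteins accumulate and repress that pair, and BHLHE40 and BHLHE41 (DEC1 and DEC2) are repressors that bind the same E-boxes. NR1D1 (REV-ERBα) represses ARNTL through ROR elements, and DBP activates genes that carry D-boxes. BHLHE40 is also known to respond to hypoxia, serum and other stresses, outside any rhythm.

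The promoters show which members carry these elements next to their start. RefSeq windows on GRCh38.p14, running from 250 bases before the start and 300 bases long, were found for all 10 members (13 windows, as PER3, CRY2 and ARNTL have more than 1 start). Both strands were searched for the E-box CACGTG, the D-box TTATGTAA, the ROR element TAGGTCA and the cyclic AMP element TGACGTCA, and no matches overlapped. Of all 35116 windows of this length, 7.26% hold the E-box, 0.886% the D-box, 1.85% the ROR element and 1.85% the cyclic AMP element. The E-box was present in 3 members, BHLHE40, BHLHE41 and PER1. Their 250 bases before the start follow, because the E-box is the element that the BHLHE40 and BHLHE41 proteins bind. The E-box is in capitals.
BHLHE40, chr3:4979187-4979436, plus strand: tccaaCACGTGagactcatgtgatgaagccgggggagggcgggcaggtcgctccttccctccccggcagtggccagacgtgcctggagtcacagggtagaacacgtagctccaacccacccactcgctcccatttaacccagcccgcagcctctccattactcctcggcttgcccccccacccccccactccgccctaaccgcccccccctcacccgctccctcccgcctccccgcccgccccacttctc
BHLHE41, chr12:26125038-26125287, minus strand: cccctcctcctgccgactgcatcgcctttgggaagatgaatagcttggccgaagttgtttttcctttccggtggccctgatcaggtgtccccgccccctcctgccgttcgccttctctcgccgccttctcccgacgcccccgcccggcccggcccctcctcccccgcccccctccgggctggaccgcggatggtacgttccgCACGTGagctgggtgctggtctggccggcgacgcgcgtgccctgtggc
PER1, chr17:8152405-8152654, minus strand: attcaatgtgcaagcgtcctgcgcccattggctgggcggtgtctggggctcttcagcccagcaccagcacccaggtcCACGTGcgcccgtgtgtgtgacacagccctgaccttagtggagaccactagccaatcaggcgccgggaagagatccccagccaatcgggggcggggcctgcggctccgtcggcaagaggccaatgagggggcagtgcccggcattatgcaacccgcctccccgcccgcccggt
The first base of the E-box lay 245 bases before the start of BHLHE40, 48 before that of BHLHE41 and 173 before that of PER1. The E-box reads the same on both strands. A D-box stood 177 bases before 1 start of PER3, and a ROR element stood 65 bases before 1 start of CRY2 and at base 31 of an ARNTL transcript. These 3 sites are shown in 30 bases each, with the element in capitals, because DBP acts on the first element and NR1D1 on the second.
PER3, chr1:7784103-7784132, plus strand: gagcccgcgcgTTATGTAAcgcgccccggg
CRY2, chr11:45847399-45847428, plus strand: ttgcggcgtcaTAGGTCActgggcgggcta
ARNTL, chr11:13277809-13277838, plus strand: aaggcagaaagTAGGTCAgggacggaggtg
The windows of the remaining 4 members (PER2, CRY1, NR1D1 and DBP) held none of the elements searched. A match is a description of the letters and not a binding site. Only these exact letters were searched, so variant forms and elements outside the windows would be missed.

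Levels are deposited FPKM (fragments scaled for transcript length and mapped reads), so levels of different genes can be compared per length. Read counts are unknown. Many genes shared a small positive value that fell with length, taken here as the level of a gene without reads. From it relative depth, set to 1.0 in the deepest library, was estimated at 0.757 to 0.952 after reversine, 0.626 to 0.783 after BafA1, 0.725 to 0.876 after MG132 and 0.835 to 1.0 in controls. Transcripts rich in GC read low in 4 libraries: reversine 1, BafA1 3, MG132 2 and MG132 3. For every 10 percentage points of GC, their values changed by −0.328, −0.0874, −0.419 and −0.447 log2 units relative to the average library, and the slopes of the other 8 libraries were positive. Rows at exactly 0 numbered 9118 in control 3, 10150 in MG132 2 and 9689 in MG132 3. They numbered 889 to 4240 in the remaining libraries, and the part of this in the results was not tested. Of 10 markers of retinal pigment epithelium, KRT8, KRT18 and MITF stood at least 3 times above the level of a gene without reads in every library, while RPE65, TYR and TTR were near that level. RLBP1, TYRP1, PMEL and BEST1 stood at 0.967 to 3.29 times that level. The 10 summed to 1288 to 1562 FPKM after reversine, 1131 to 1263 after BafA1, 464 to 719 after MG132 and 1224 to 1388 in controls, and the part of this difference in the results after MG132 was not tested. These sums were led by KRT8 and KRT18, which averaged 819 and 442 FPKM in controls and 345 and 200 after MG132. Lists of 4 blood, 4 endothelial and 4 other epithelial markers each summed to 18.3 FPKM or less in every library. A list of 4 neuronal markers, led by TUBB3, summed to 186 to 471 FPKM in reversine libraries, 433 to 628 in BafA1 libraries, 136 to 644 in MG132 libraries and 70.0 to 739 in controls. A list of 4 photoreceptor markers summed to at most 7.91 FPKM in treated libraries and reached 75.2 in 1 control, where CRX stood at 73.3. The part of these lists in the results was not tested. All differences are given as log2 differences of FPKM + 1, a scale that compresses low genes. Adjusted p-values are Benjamini-Hochberg values over 30712 tested genes from limma. All comparisons with control share the same 3 control libraries.

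BHLHE40 (ENSG00000134107), the E-box repressor, was higher in all 9 treated libraries than in any control. It had 49.4, 47.3 and 42.5 FPKM after reversine, 85.8, 79.6 and 87.0 after BafA1 and 71.5, 65.5 and 61.3 after MG132, against 17.3, 16.4 and 20.6 in controls. The 4 groups did not overlap, and they ordered as control, reversine, MG132 and BafA1 from low to high. Means were 46.4 ± 3.55 FPKM after reversine, 84.2 ± 3.98 after BafA1 and 66.1 ± 5.13 after MG132, and 18.1 ± 2.24 in controls (SD, n = 3 each). The log2 differences from control were 1.32 after reversine, 2.16 after BafA1 and 1.82 after MG132, with an SE of 0.126. In order of size these differences ranked 2886, 2522 and 873 from the top among 30712 tested genes. That order takes no account of the spread between libraries, so genes with noisy values can rank high. In the same comparisons limma called 246, 62 and 2192 genes higher.

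The choice of BHLHE40 used its rise over control after each treatment but not the differences between treatments, which were tested. BHLHE40 was lower after reversine than after BafA1 (log2 difference −0.85, limma adjusted p 0.0134) and lower after reversine than after MG132 (−0.50, limma adjusted p 0.0472). BafA1 libraries lay above all MG132 libraries, but that difference did not pass (0.35 ± 0.126 SE, limma adjusted p 0.112; 0.026 without MG132 1). The first call was lost without reversine 2 or 3 and without BafA1 1 or 3, under median-ratio scaling, in a fit of the compared groups alone and when the 4 libraries with negative GC slopes (called the 4 low-slope libraries here) were left out (limma adjusted p 0.0542 to 0.271). The second was lost in 14 of 20 alternatives, among them every omission of 1 library other than reversine 1 and MG132 1 (limma adjusted p 0.0543 to 0.234 over the 14).

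**Figure D1:**
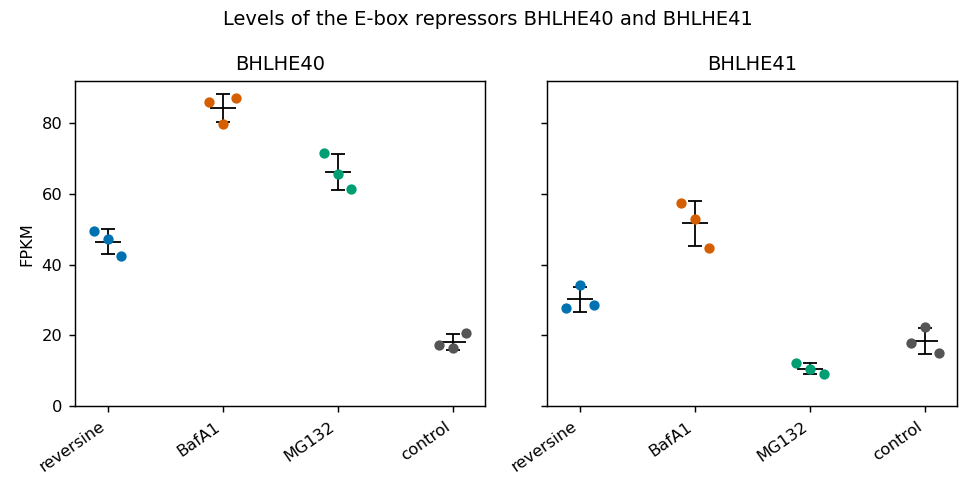
FPKM (y axis) of BHLHE40 and BHLHE41 in reversine, BafA1, MG132 and control libraries (points), with the mean and SD of 3 libraries (black). BHLHE40 averages 46.4, 84.2 and 66.1 FPKM after the 3 treatments and 18.1 in controls, whereas BHLHE41 is at 51.6 after BafA1, 10.7 after MG132 and 18.4 in controls.

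BHLHE41 (ENSG00000123095), the close paralog of BHLHE40 and a repressor at the same E-boxes, rose after BafA1 and fell after MG132. It had 27.7, 34.2 and 28.5 FPKM after reversine, 57.3, 52.8 and 44.8 after BafA1 and 12.1, 10.7 and 9.18 after MG132, against 17.8, 22.3 and 15.1 in controls. No treated group overlapped the controls, with reversine and BafA1 libraries above them and MG132 libraries below. The log2 difference was 1.45 after BafA1 (limma adjusted p 0.0182) and −0.73 after MG132 (limma adjusted p 0.0308). After reversine it was 0.69 ± 0.188 SE and did not pass (limma adjusted p 0.12; 0.0434 with the GC and length correction).

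The distance between BafA1 and MG132 was the largest for BHLHE41 among the 6 comparisons. Its level was 51.6 ± 6.34 FPKM after BafA1 and 10.7 ± 1.47 after MG132 (SD, n = 3 each), a log2 difference of 2.18 (limma adjusted p 0.000125), and this passed in all 20 alternatives (limma adjusted p 3.72e-05 to 0.0214). It was also higher after reversine than after MG132 (1.42, limma adjusted p 0.00225), a call lost in the fit of those groups alone (0.0595) and without the 4 low-slope libraries (0.0963). The call after BafA1 was lost in 9 of 20 alternatives (limma adjusted p 0.052 to 0.137), which include the fits without control 1, control 3, BafA1 1, BafA1 2, BafA1 3 or MG132 2. The call after MG132 was lost in 7 (limma adjusted p 0.0512 to 0.358), which include the fits without control 1, control 2, MG132 2 or MG132 3.

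In controls both repressors were at about the same level per length. The ratio of BHLHE41 to BHLHE40 FPKM was 0.560, 0.724 and 0.670 after reversine, 0.667, 0.664 and 0.514 after BafA1 and 0.169, 0.163 and 0.150 after MG132, against 1.03, 1.36 and 0.734 in controls. The ratio was lowest in the MG132 libraries, where BHLHE40 stood high and BHLHE41 low. Because BHLHE40 was chosen for its higher level after treatment, a lower ratio in treated libraries than in controls follows in part from that choice, and the ratio is given as a description. After BafA1 it was below the controls although BHLHE41 itself was higher there.

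CRY2 (ENSG00000121671), a cryptochrome that represses the ARNTL pair, rose after MG132. It had 6.14, 9.60 and 9.03 FPKM after reversine, 7.96, 8.12 and 8.55 after BafA1 and 19.6, 16.9 and 16.6 after MG132, against 5.61, 5.44 and 7.46 in controls. Every MG132 library lay above all other libraries. The mean was 17.7 ± 1.67 FPKM after MG132 and 6.17 ± 1.12 in controls (SD, n = 3 each), a log2 difference of 1.39 (limma adjusted p 0.00267). This was the only member called after MG132 in all 20 alternatives (limma adjusted p 0.000172 to 0.021). CRY2 stood at 2.245 to 3.69 times the level estimated for a gene without reads in controls and at 6.50 to 7.30 times after MG132. That level was 2.02 to 2.42 FPKM in controls and 2.31 to 2.79 in MG132 libraries. CRY2 was lower after reversine than after MG132 (−1.03, limma adjusted p 0.0214) and lower after BafA1 than after MG132 (−1.02, limma adjusted p 0.0151). The call between reversine and MG132 was lost without reversine 3, MG132 2 or MG132 3, in the fit of those groups alone and without the 4 low-slope libraries (limma adjusted p 0.0553 to 0.216), and the one between BafA1 and MG132 without BafA1 1 or BafA1 2 and in the same 2 other fits (0.0549 to 0.0662).

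CRY1 (ENSG00000008405), the other cryptochrome, was not called in any comparison. It had 19.9, 9.22 and 8.91 FPKM after reversine, 7.05, 6.25 and 11.7 after BafA1 and 7.77, 12.7 and 14.4 after MG132, against 8.89, 12.02 and 7.49 in controls. All groups overlapped, and the highest library of each treated group was one in which values fell with GC content. Its longest transcript has 37.2% GC, the lowest of the 10 members, whereas that of CRY2 has 57.0%. The log2 difference was 0.32 after reversine (limma adjusted p 0.814; −0.03 without reversine 1), −0.19 after BafA1 (0.892) and 0.25 after MG132 (0.63). After MG132 it was −0.31 with the GC and length correction and −0.23 without the 4 low-slope libraries.

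DBP (ENSG00000105516), the D-box activator, fell after MG132. It had 3.06, 5.57 and 5.16 FPKM after reversine, 10.1, 9.26 and 9.01 after BafA1 and 1.78, 1.34 and 0.91 after MG132, against 2.80, 3.08 and 3.77 in controls. The BafA1 libraries lay above all others and the MG132 libraries below all others, while reversine overlapped the controls. The log2 difference was −0.86 after MG132 (limma adjusted p 0.0415). After BafA1 it was 1.31 ± 0.239 SE and did not pass (limma adjusted p 0.0885; 0.0391 without reversine 1 and 0.0077 with the GC and length correction). The unadjusted limma p was smaller after BafA1 (0.000349) than after MG132 (0.00563), and the adjustment was made within each comparison. The MG132 call was lost in 14 of 20 alternatives (limma adjusted p 0.0537 to 0.243), among them every omission of 1 library other than reversine 1 and MG132 1. With the GC and length correction the MG132 difference was −0.28.

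Against MG132 both other treatments had more DBP. It was higher after BafA1, at 9.45 ± 0.554 FPKM, than after MG132, at 1.34 ± 0.435 (SD, n = 3 each; log2 difference 2.17, limma adjusted p 0.000501), and this passed in all 20 alternatives (limma adjusted p 0.000226 to 0.0179). It was also higher after reversine than after MG132 (1.24, limma adjusted p 0.0151). This did not pass without reversine 2, reversine 3, MG132 2 or MG132 3 and in the fit of those groups alone (limma adjusted p 0.0501 to 0.173). At 65.5% GC the single DBP transcript has the highest GC content of the 10 members.

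NR1D1 (ENSG00000126368), the repressor of ARNTL, was not called in any comparison, and its libraries split within groups. It had 9.71, 17.2 and 18.8 FPKM after reversine, 12.5, 12.8 and 9.32 after BafA1 and 10.7, 4.77 and 5.06 after MG132, against 8.13, 8.84 and 9.59 in controls. In each treated group the lower libraries were those in which values fell with GC content, namely reversine 1, BafA1 3, MG132 2 and MG132 3, and the NR1D1 transcript has 59.5% GC. The log2 difference after reversine was 0.67 ± 0.334 SE (limma adjusted p 0.439), and it passed with the GC and length correction (0.81, limma adjusted p 0.0288) and without those 4 libraries (0.95, limma adjusted p 0.0478). After MG132 it was −0.41 (limma adjusted p 0.401), −0.03 with the correction and 0.25 without the 4 libraries. Between reversine and MG132 the difference was 1.08 (limma adjusted p 0.0917; 0.0398 without reversine 1, 0.00613 without MG132 1), and between BafA1 and MG132 it was 0.74 (0.125; 0.0169 without MG132 1). NR1D1 overlaps the 3′ end of THRA, which lies on the opposite strand, and no strand setting is given, so their reads may be shared. THRA, a thyroid hormone receptor gene, fell to 12.9, 8.05 and 7.27 FPKM after MG132, against 30.3, 27.6 and 31.5 in controls (log2 difference −1.60, limma adjusted p 0.0022).

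**Figure D2:**
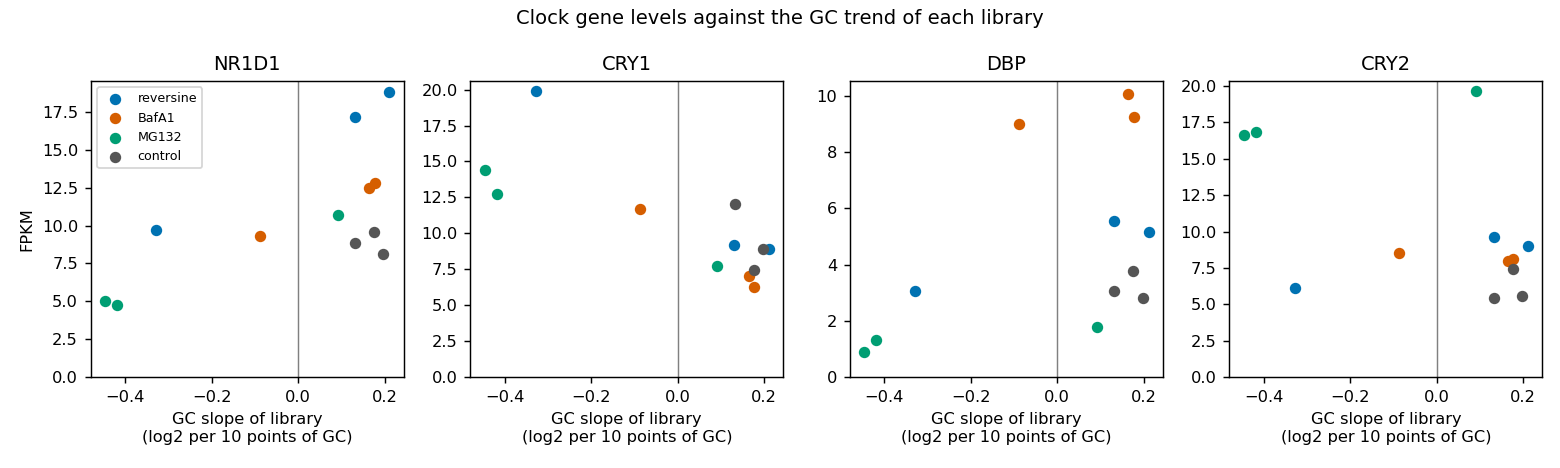
FPKM (y axis) of NR1D1, CRY1, DBP and CRY2 in each library against that library's slope with transcript GC content (x axis, log2 units per 10 percentage points, 0 for the average library). Points are single libraries coloured by group. The libraries at −0.328, −0.419 and −0.447 (reversine 1, MG132 2 and MG132 3) have less NR1D1 and more CRY1 than the other libraries of their groups, while CRY2 stays highest after MG132 on both sides of 0.

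ARNTL (ENSG00000133794), the activator BMAL1, had 13.9, 12.9 and 12.1 FPKM after reversine, 11.9, 12.6 and 11.6 after BafA1 and 9.99, 11.4 and 12.8 after MG132, against 9.68, 8.66 and 10.7 in controls. Reversine and BafA1 libraries lay above the controls and MG132 overlapped them. The log2 differences were 0.39 after reversine (limma adjusted p 0.395), 0.29 after BafA1 (0.649) and 0.21 after MG132 (0.401), and none passed. The table lists 24 transcripts for ARNTL, of which 21 were matched in GENCODE v29. A gene with those 21 transcripts and no reads would stand at an estimated 4.47 to 5.59 FPKM in BafA1 libraries and 3.50 to 4.195 in controls. That level was higher after BafA1 than in controls, as was ARNTL, and its part in the difference was not tested.

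The 3 period genes, whose proteins repress together with the cryptochromes, were not called against control. PER1 had 10.4, 15.5 and 16.7 FPKM after reversine, 18.0, 19.1 and 15.5 after BafA1 and 16.6, 15.7 and 10.3 after MG132, against 11.1, 12.1 and 10.8 in controls. The BafA1 libraries lay above all controls (log2 difference 0.58 ± 0.236 SE, limma adjusted p 0.478), and the other 2 groups overlapped them (0.28 after reversine, limma adjusted p 0.75, and 0.27 after MG132, 0.401). After MG132 it passed as higher with the GC and length correction (0.82, limma adjusted p 0.0135). PER1 stood at 2.44 to 4.24 times the level estimated for a gene without reads.

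PER3 was higher after BafA1 than after MG132 (log2 difference 0.65, limma adjusted p 0.037). It had 3.84, 4.09 and 3.31 FPKM after reversine, 5.12, 5.10 and 5.95 after BafA1 and 3.13, 3.14 and 2.90 after MG132, against 3.81, 4.64 and 4.21 in controls. BafA1 libraries lay above all others and MG132 libraries below all others. The call was lost in 11 of 20 alternatives (limma adjusted p 0.0611 to 0.178), among them the fits without control 1 or 2, reversine 2 or 3, BafA1 1, 2 or 3 and MG132 2 or 3. Against control the difference was 0.29 after BafA1 (limma adjusted p 0.656) and −0.36 after MG132 (0.138; 0.0353 with the GC and length correction).

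PER2 had the lowest mean of the 10 members over the 12 libraries, with 1.52, 1.46 and 2.40 FPKM after reversine, 1.81, 2.20 and 2.12 after BafA1 and 1.49, 1.43 and 1.55 after MG132, against 1.53, 1.58 and 1.53 in controls. BafA1 libraries lay above the controls by a small distance (log2 difference 0.25, limma adjusted p 0.541). Its values were only 1.92 to 3.25 times the level estimated for a gene without reads. That level was summed over the 4 of 6 PER2 transcripts that were matched, so it is a low estimate. Small differences of PER2 may not be measurable at this depth, and this was not tested.

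**Figure D3:**
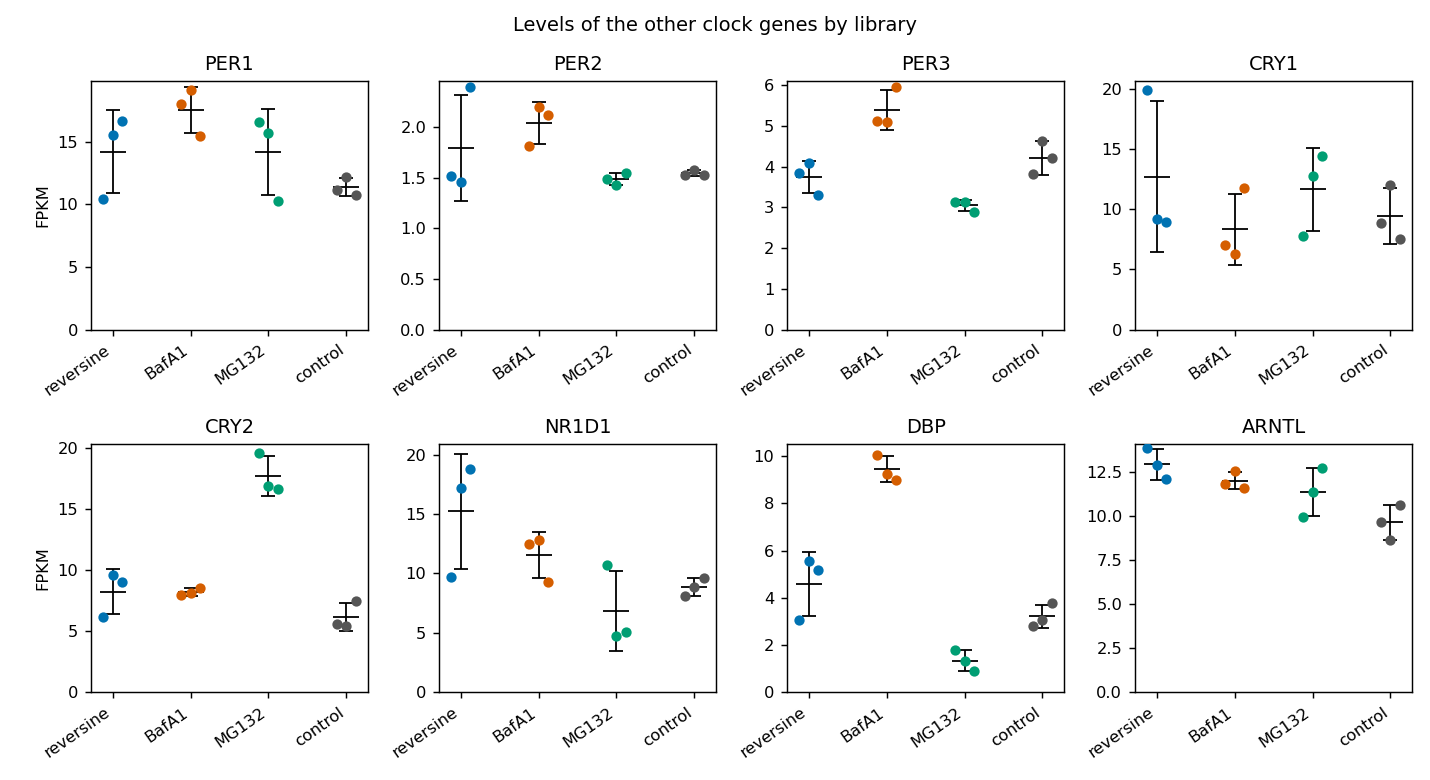
FPKM (y axis, a separate linear scale for each gene) of PER1, PER2, PER3, CRY1, CRY2, NR1D1, DBP and ARNTL in reversine, BafA1, MG132 and control libraries (points) with mean and SD of 3 libraries (black). CRY2 is highest after MG132 (17.7 FPKM against 6.17 in controls), and DBP averages 9.45 after BafA1 and 1.34 after MG132.

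Counted over the 9 tested members, 0 were called after reversine, where 2.09% of all tested genes were called. At an unadjusted p under 0.05 there were 2, BHLHE41 and ARNTL, both higher, where 11.8% of all tested genes passed. After BafA1 1 member rose and 0 fell, against a background of 0.264% called (0.202% higher and 0.0619% lower). After MG132 1 rose (CRY2) and 2 fell (BHLHE41 and DBP), against a background of 14.8% called (7.14% higher and 7.67% lower). The median log2 difference of the 9 was 0.36 with reversine, 0.34 with BafA1 and −0.03 with MG132, beside 0.09, 0.14 and 0.04 over all tested genes.

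Treated libraries lay wholly above the controls for 3 of the 9 with reversine, 7 with BafA1 and 1 with MG132. The background for libraries wholly above was 9.97%, 15.7% and 20.3% of all tested genes in the same order. They lay wholly below for 0, 0 and 3 members, where the background was 10.1%, 7.42% and 13.5%. All BafA1 libraries were shallower than all controls, which raises the level of genes without reads, and the part of this in the count of 7 was not tested. Of the 7, ARNTL, PER2, CRY2, PER1 and PER3 stood at 2.25 to 6.04 times that level in BafA1 libraries, and BHLHE41 and DBP at 39.9 to 173 times.

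Between treatments all 10 members were tested. BHLHE40 was the 1 member called between reversine and BafA1 (background 1.23%, of which 0.443% higher and 0.785% lower after reversine). Between reversine and MG132 there were 4, with BHLHE41 and DBP higher and BHLHE40 and CRY2 lower after reversine (background 6.51%, of which 3.52% higher and 2.99% lower). Between BafA1 and MG132 there were also 4, with BHLHE41, DBP and PER3 higher and CRY2 lower after BafA1 (background 10.9%, of which 6.37% higher and 4.49% lower).

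**Figure D4:**
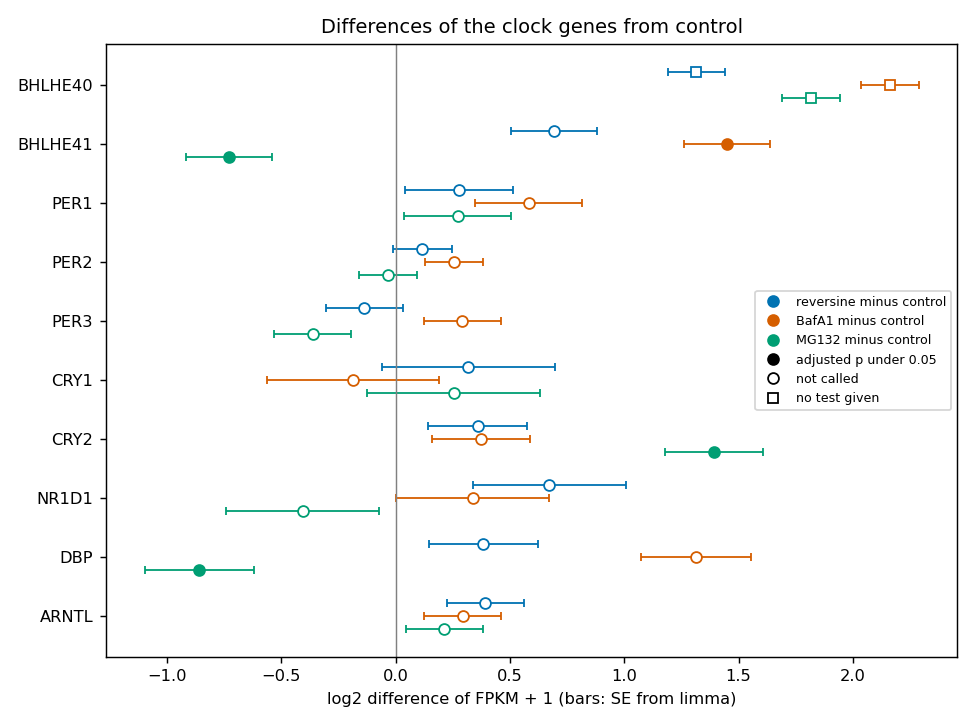
Log2 difference of FPKM + 1 from control (x axis) with its SE (bars) for the 10 members and the treatments reversine, BafA1 and MG132. Filled circles passed at an adjusted p under 0.05, open circles did not, and open squares are BHLHE40, given without a test. BHLHE40 lies at 1.32 to 2.16 for all 3 treatments, whereas BHLHE41 and DBP lie to the right of 0 after BafA1 and to the left after MG132.

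Other genes of the clock circuit that passed the filter on low values numbered 19. With reversine or BafA1 0 of the 19 were called by limma, with 2 and 3 at an unadjusted p under 0.05, where 11.8% and 7.12% of all tested genes passed. After MG132 3 rose, 4 fell and 12 did not pass, beside the same background of 14.8%. NPAS2, the partner of ARNTL that can replace CLOCK, fell to 24.3, 16.1 and 14.2 FPKM after MG132, against 54.4, 49.2 and 57.6 in controls (log2 difference −1.55, limma adjusted p 0.00951), and was called in all 20 alternatives (up to 0.0466). TIMELESS, which also acts in DNA replication, fell to 6.93, 12.2 and 11.2 FPKM after MG132, against 21.3, 25.6 and 22.2 in controls (−1.14, limma adjusted p 0.0187). This call was lost without control 1, 2 or 3 (0.0566 to 0.0686). TIMELESS was as low with reversine, at 12.7, 9.35 and 7.38 FPKM, again below every control. That log2 difference was −1.18 and did not pass in the main fit (limma adjusted p 0.061). Other settings gave it values between 0.0277 and 0.201.

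The other 5 calls after MG132 went in both directions. NR1D2, the paralog of NR1D1, rose (log2 difference 0.96, limma adjusted p 0.0365), as did NFIL3, a repressor at D-boxes (1.35, limma adjusted p 0.0287), and FBXW11, a ubiquitin ligase subunit that binds PER proteins (0.62, limma adjusted p 0.0119). CSNK1D and CSNK1E, the kinases that phosphorylate PER proteins, fell (−0.96 and −0.68, limma adjusted p 0.0449 and 0.0435). Each of these 5 calls was lost in 6 to 13 of the 19 or 20 alternatives, among them the fits without control 1, MG132 2 or MG132 3. NFIL3 had 3.50, 8.71 and 8.27 FPKM after MG132, against 1.96, 2.15 and 1.60 in controls, so MG132 1, the library with a positive GC slope, was nearest to the controls. The CLOCK gene itself was not called after MG132 (−0.63, limma adjusted p 0.0991).

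Between reversine and BafA1 limma called 0 of the 19 (background 1.23%), with 1 at an unadjusted p under 0.05, where 7.47% of all tested genes passed. NPAS2 was higher after reversine than after MG132 (log2 difference 1.65, limma adjusted p 0.0128), the only one of the 19 called there (background 6.51%). After BafA1 TIMELESS was higher than after MG132 (1.00, limma adjusted p 0.0402), while NR1D2 (−1.06, 0.03) and FBXW11 (−0.49, 0.0412) were lower, so 3 of the 19 were called (background 10.9%). Each of these 4 calls was lost in 5 to 13 of 20 alternatives, among them the fits without MG132 2 or MG132 3.

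The 5 genes with the pattern nearest to BHLHE40 over the 12 libraries were CCNG2, STARD4, NDRG1, ANKZF1 and CLCN6, out of 24389 genes that averaged 2 FPKM or more. Likeness was the root mean square difference of log2(FPKM + 1) after each gene was centred on its own mean, and it was 0.31, 0.31, 0.31, 0.35 and 0.35 log2 units in that order. BHLHE40 was chosen for its rise and these genes for their likeness to it. Their higher levels after treatment follow from that choice and are given as a description. CCNG2, an atypical cyclin, averaged 13.7 FPKM after reversine, 24.4 after BafA1 and 16.6 after MG132, and 5.59 in controls. STARD4, a sterol carrier, averaged 30.4, 56.9 and 51.3 FPKM after the same treatments, and 17.9 in controls. NDRG1, a gene known to respond to hypoxia, averaged 74.1, 151 and 156 FPKM, and 36.1 in controls. None of the other 9 clock members was among these 5.

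**Figure D5:**
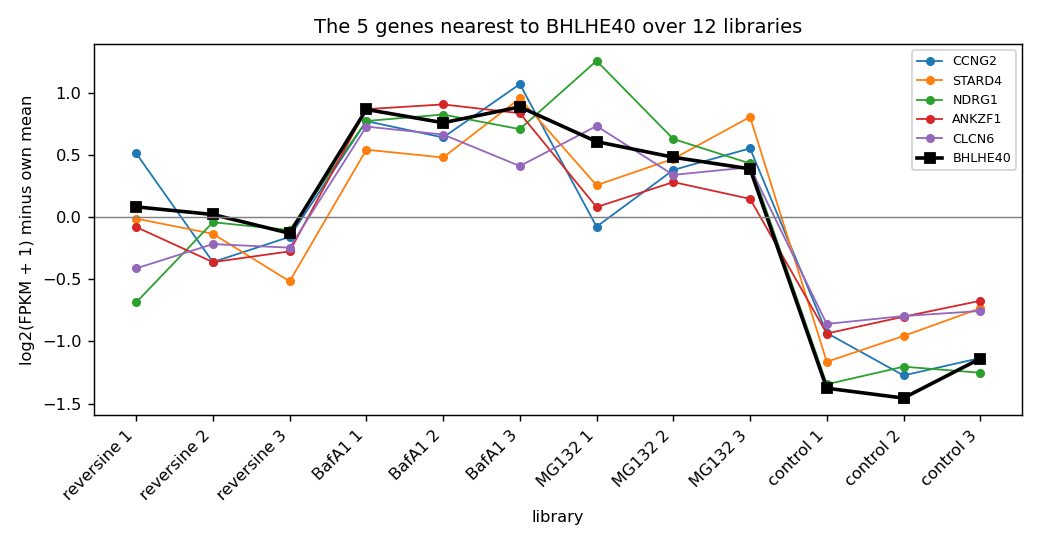
Log2(FPKM + 1) minus the gene's own mean over the 12 libraries (y axis) for BHLHE40 (black squares) and its 5 nearest genes (coloured circles), by library (x axis; reversine, BafA1, MG132, control). All 6 genes are below 0 in the 3 controls, and BHLHE40 stays above the controls in all 9 treated libraries, as follows from how the genes were chosen.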

How the data were processed

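Polyadenylated RNA from 12 libraries of hTERT-RPE1 cells was sequenced as 50 nt reads. The authors used Bowtie 1.0.0 and RSEM 1.2.6 with hg19 (GRCh37) to make the FPKM values they deposited, per the submitters' processing notes. The table names no unit; FPKM was inferred from the values, whose totals differ between libraries. No strand setting is given in the sources used here. Groups follow the treatment in the labels, and replicate numbers follow record order and pair nothing.

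The limma trend method (limma 3.58.1, R 4.3.3) was applied to log2(FPKM + 1) of the 30712 genes that reached 1 FPKM in 3 or more libraries. It was 1 fit of 4 groups with a threshold of 0.05 after Benjamini-Hochberg adjustment. The fit was also run on simulated data with independent normal noise. Those data held no GC trend or excess of rows at 0 in single libraries, so that run cannot show how these affect the calls. The members, lists and tests were chosen with earlier results of these data known. Genes named were the members, other clock genes where called, THRA and the 5 nearest to BHLHE40; CLOCK was named after its value was seen. BHLHE40-AS1 was not analysed here.

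The level of a gene without reads was estimated from single-transcript genes of 900 to 1100 nt (lower quartile of FPKM times length minus 150 nt). It was summed over those of a gene's transcripts that were matched in GENCODE v29, so it is a low estimate where some were not matched. GC content and length come from the longest GENCODE v29 transcript, matched for 82.5% of tested genes; GC slopes used genes with at least 5 FPKM in all 12 libraries. The GC and length correction fitted a spline of 5 degrees of freedom per term on those genes. Other alternatives were a pseudocount of 0.1, no filter, a filter of 5 FPKM, median-ratio scaling, the compared groups alone, summed rows per symbol, and omission of libraries.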

Additional observations from a re-analysis of the deposited data

How the results depend on the processing

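BHLHE40 kept its direction against control in every alternative tried, and leaving out 1 library at a time gave log2 differences between 1.25 and 1.41 with reversine, between 2.10 and 2.25 with BafA1 and between 1.75 and 1.91 with MG132. Because BHLHE40 was chosen for this rise, its kept direction is a description and not a test. Over 68 single-gene results and 20 alternatives, 1147 of 1353 values kept direction and call, 170 lost the call, 13 gained it and 23 changed direction. In all 23 the gene was not called. Not every alternative could move a value. The filters, the fit of the compared groups alone and omission of a library outside the comparison left the log2 difference as it was. They could change only the call, and summed rows changed nothing because each symbol had 1 row. A call could be lost only where the main fit had made it, so the 1147 include many results never called. No paired analysis was possible because the labels give no replicate numbers shared between groups.

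Members called numbered 0 for reversine vs control, 1 for BafA1 vs control, 3 for MG132 vs control, 1 for reversine vs BafA1, 4 for reversine vs MG132 and 4 for BafA1 vs MG132. In the same order of comparisons the GC and length correction gave 2, 2, 4, 2, 5 and 4. The fit of the compared groups alone, which has fewer samples, gave 0, 0, 1, 0, 0 and 2, and leaving out the 4 low-slope libraries gave 1, 0, 1, 0, 1 and 2. Median-ratio scaling gave 0 for BafA1 vs control and 0 for reversine vs BafA1, and no filter gave 1 for MG132 vs control. Leaving out 1 library at a time gave 0 to 0, 0 to 2, 1 to 3, 0 to 1, 1 to 5 and 2 to 6.

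All genes called numbered 642, 81, 4549, 377, 2000 and 3334. The correction gave 1451, 289, 7095, 779, 4001 and 4933, the compared groups alone 22, 24, 3082, 5, 318 and 1468, and omission of the 4 libraries 859, 56, 2679, 237, 1001 and 1863. Leaving out 1 library gave 246 to 852, 19 to 132, 2427 to 12980, 142 to 456, 935 to 17052 and 1851 to 18401. Without MG132 1 the counts for MG132 vs control, reversine vs MG132 and BafA1 vs MG132 were the highest of these, and the cause was not tested.

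Some uncalled differences turned round. With the GC and length correction the log2 difference was 0.13 for PER2, −0.31 for CRY1 and −0.11 for ARNTL in MG132 vs control, 0.0835 for CRY2 in reversine vs BafA1, −0.34 for PER1 in reversine vs MG132, and −0.18 for PER1 and 0.0182 for CRY1 in BafA1 vs MG132. Without the 4 low-slope libraries it was −0.0337 for CRY1 in reversine vs control, −0.23 for CRY1 and 0.25 for NR1D1 in MG132 vs control, 0.19 for CRY2 in reversine vs BafA1 and −0.0433 for PER1 in reversine vs MG132. Median-ratio scaling gave 0.0726 for CRY2 in reversine vs BafA1. Leaving out 1 library gave −0.0325 to 0.20 for PER2 and −0.0337 to 0.50 for CRY1 in reversine vs control, −0.12 to 0.16 for CRY2 in reversine vs BafA1, −0.20 to 0.20 for PER1 and −0.29 to 0.25 for CRY1 in reversine vs MG132, and −0.0039 to 0.16 for ARNTL in BafA1 vs MG132. For these the cause was not tested. PER2 and NFIL3 had no value under the filter of 5 FPKM. Among the members, PER2 came nearest to the level of a gene without reads after reversine and MG132. In controls and after BafA1 it was ARNTL that came nearest. Which member depth limits most was not tested.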
